A study of Mus musculus with 8 samples.

Results

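The genes described here equip a β-cell to store insulin in granules, to release the granules and to couple release to glucose. A list of 42 genes was used, and each gene was represented by the probe set that carried its symbol alone and had the highest mean signal over all arrays. For 41 of the 42 such a probe set was found, out of 22180 genes with one and 41345 probe sets on the array. Pcsk2, a prohormone convertase, had none and is named only.

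The arrays compared mice lacking the Wnt receptor Fzd9 with mice that have it, both with Myc switched on in their β-cells. The Fzd9 KO group held 4 Fzd9 KO/KO;MycER;BclXL mice and the Fzd9 WT group 4 Fzd9 WT/WT;MycER;BclXL mice, all adult and on a C57Bl/6 background. Every mouse carried pIns-MycERTAM, a tamoxifen-dependent form of Myc driven by the insulin promoter, and RIP7-Bcl-xL, which expresses the survival protein Bcl-xL from the rat insulin promoter. Every mouse received intraperitoneal tamoxifen for 3 d, and neither a group without MycER nor an untreated group was on the arrays. The Fzd9 deletion was present throughout the body and not in β-cells alone. Each array held RNA from 1 mouse, which the methods describe as a pool of hand-picked islets and the labels as insulinoma tissue.

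In β-cells, prohormones are cut and packed with granins into dense-core granules, which carry zinc transporters and receptor-like phosphatases in their membranes. Rab GTPases and their effectors bring granules to the plasma membrane, and SNARE proteins fuse them under the control of calcium-binding synaptotagmins. Glucose entry and metabolism close KATP channels, the cell depolarizes and calcium channels open, and receptors for incretins and fatty acids amplify the release.

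Syt4 was the only one of the 41 genes to pass the threshold in Fzd9 KO islets, where it fell to 0.569 of its level in WT islets. The threshold was an unadjusted limma p under 0.05 together with a fold change of at least 1.2 in either direction. On the whole array 658 of 41345 probe sets (1.59%) passed as lower and 786 (1.9%) as higher, so that 1 member lower and 0 higher of 41 are close to the background. With Benjamini-Hochberg adjustment over all probe sets 0 members and 0% of probe sets had an adjusted p under 0.05, while 1444 probe sets and 1 member had an unadjusted p under 0.05. The methods' t-test gave 1622 probe sets at that unadjusted level.

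The direction of the small differences was uneven. Log2 fold changes, KO minus WT, were negative for 34 members (82.9%) and positive for 7, with a median of −0.18. Over all probe sets 47.6% were negative and the median was 0.02, and over the 4047 genes at least as bright as the lower quartile of the members 60.1% were negative and the median was −0.05. The members share mice and cells, so these counts are a description without a test. Leaving out WT mouse 1 brought the median to −0.07 and leaving out KO mouse 1 brought it to −0.15, with 31 and 29 members negative. Leaving out any 1 of the other mice moved it the other way, to between −0.27 and −0.21. The 95% interval of the difference stayed within a 2-fold change either way for 29 of the 41 genes, and reached beyond it for the other 12.

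**Figure D1:**
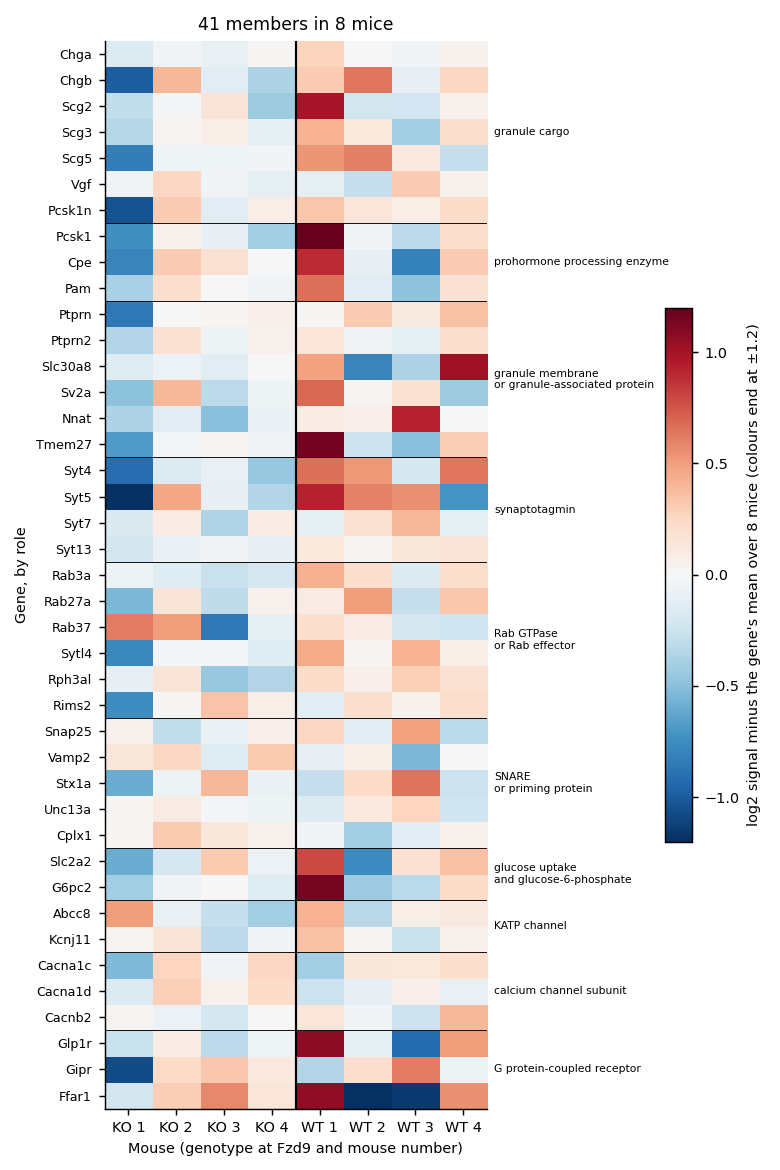
Log2 signal of the 41 genes (rows, by role) in the 4 KO and the 4 WT mice (columns), each as the difference from that gene's mean over the 8 mice, with red above and blue below. KO mouse 1 was the lowest mouse for 18 genes and WT mouse 1 the highest for 18.

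Single mice stood at the ends of the range for many of the genes. KO mouse 1 had the lowest signal of all 8 mice for 18 of the 41 genes, and WT mouse 1 had the highest for 18. The mean log2 signal over the members was 6.42, 6.91, 6.74 and 6.74 in KO mice 1 to 4, against 7.17, 6.80, 6.77 and 6.93 in WT mice 1 to 4. The genotypes overlapped, since KO mouse 2 lay above WT mice 2 and 3. The median of the whole array ran the other way in the mice at the ends. It was highest in KO mouse 1 (3.17) and lowest in WT mouse 1 (2.90). With array medians centred the median log2 fold change of the members was −0.21, and the part of overall array level in single values was not tested.

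Acinar RNA differed between mice, though WT mouse 1 lay within the range of the other WT mice. The mean log2 signal over 34 measured acinar markers was 5.80, 4.16, 4.20 and 3.37 in KO mice 1 to 4 and 4.07, 3.52, 4.89 and 3.78 in WT mice 1 to 4. KO mouse 1 and WT mouse 3 were thus the highest of their genotypes, and their arrays had the lowest mean correlation with the other arrays (0.893 and 0.897, the other 6 being between 0.917 and 0.926). None of the acinar markers passed the threshold, and 28 of the 34 had a positive log2 fold change, with a median of 0.30, against the −0.18 of the members. In a bulk sample, fewer cells of a type and less RNA per cell cannot be told apart. Without KO mouse 1 and WT mouse 3 together the members' median was −0.20, with 31 of the 41 negative. The part of acinar RNA in the members' values was not tested, and values without these mice are given beside several of the genes.

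β-cell markers were present in the RNA of both genotypes. Of 9 measured markers, 6 in KO and 8 in WT islets had a mean signal above that of 95% of 1405 probe sets for olfactory and vomeronasal receptors, genes not thought to be used in islets. This gauge lay at 3.68 in KO and 3.46 in WT islets. Iapp, which encodes islet amyloid polypeptide, was at 10.63 ± 0.16 in KO and 10.73 ± 0.48 in WT islets (SD, n = 4 each). The mean over the markers was 5.49 to 5.95 in KO mice and 5.49 to 6.24 in WT mice, and none of the 9 passed the threshold. Of these markers 7 had a negative log2 fold change and the median was −0.20, near that of the members, one of which (Slc2a2) is on both lists. Of the other cell types, 12 endothelial markers had a median log2 fold change of 0.37 with overlapping mouse means (5.18 to 6.64 in KO and 4.58 to 6.45 in WT mice), 8 markers of α-, δ- and PP-cells had one of −0.28, and 1 of 9 duct markers fell (Krt8, by 0.48, SE 0.20). Their part in the members' values was not tested. Fzd9 itself lay below the gauge in both genotypes, at 2.68, 2.76, 2.65 and 2.01 in KO mice and 3.44, 1.97, 2.78 and 3.31 in WT mice, so its signal cannot check the genotype labels.

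**Figure D2:**
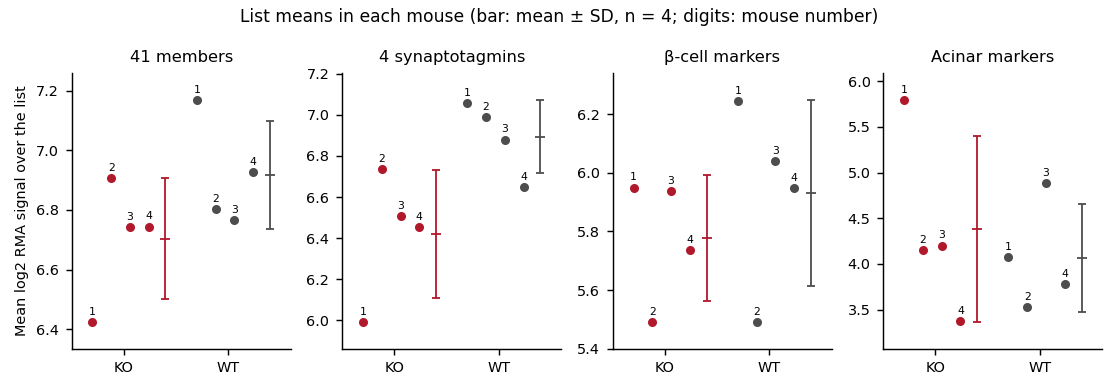
Mean log2 signal of each KO and each WT mouse over the 41 genes, the 4 synaptotagmins, the β-cell markers and the acinar markers, with mean and SD of each genotype. In the acinar panel KO mouse 1 (5.80) and WT mouse 3 (4.89) stand above the other mice of their genotype.

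Among the members whose promoter could be searched, the 3 with a cAMP response element close to the start site encode granule cargo or a convertase. The promoter windows of RefSeq (GRCm38.p6) run from 250 bases before to 50 bases after each annotated start. They covered 28 of the 42 genes with 38 windows. No window was available for any synaptotagmin, Syt4 included, or for either KATP channel gene. Snap25, Vamp2, Rims2, Rab37, Slc30a8, Gipr, Vgf and Cpe had none either, so these genes were not searched. Each window was searched on both strands for TGACGTCA, which reads the same on both and is the full cAMP response element, and for the AP-1 site TGANTCA and the E-box CACGTG. The full element was found for 3 of the 28 genes, Chgb, Scg2 and Pcsk1, where it began 72, 68 and 78 bases before the start, and for 2.03% of all 27025 genes with a window (1.79% of all windows). The stretches are printed because the element lies at nearly the same distance in all 3 genes, with the element in capitals and no other searched motif within it.

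Chgb, chr2:132781530-132781637, plus strand: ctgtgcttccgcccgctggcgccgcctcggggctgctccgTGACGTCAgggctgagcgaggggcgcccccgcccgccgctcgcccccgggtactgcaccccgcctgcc
Scg2, chr1:79440027-79440134, minus strand: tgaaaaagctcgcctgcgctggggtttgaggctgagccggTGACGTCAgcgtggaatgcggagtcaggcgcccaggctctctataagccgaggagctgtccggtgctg
Pcsk1, chr13:75089739-75089846, plus strand: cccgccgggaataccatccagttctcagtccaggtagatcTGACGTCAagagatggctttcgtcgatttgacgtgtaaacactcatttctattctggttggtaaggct

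Of the members with a window, Pcsk1n alone had the AP-1 site and Rab27a alone the E-box. Of all genes with a window 8.97% and 8.09% did (7.81% and 7.15% of windows). A match of letters is a description and not a measured site. Among all 450 measured genes with TGACGTCA in a window, 60.2% had a negative log2 fold change and the median was −0.06. Over all 22180 genes 50% were negative and the median was −0.0001, and over the brighter genes above the values were 60.1% and −0.05. The 450 genes were not selected by brightness, and whether they differed from other genes was not tested.

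Granule cargo was lower on average without any member passing the threshold, with negative log2 fold changes for 6 of 7 genes. Chromogranin B (Chgb), a granin that aggregates in the forming granule and whose element is printed above, had the lowest p of the group. Its log2 signal was 7.12, 8.50, 7.97 and 7.73 in KO mice 1 to 4 and 8.41, 8.75, 8.01 and 8.35 in WT mice 1 to 4. KO mouse 1 was the lowest by far, and KO mouse 2 lay above 3 of the WT mice. The log2 fold change was −0.55 (SE 0.30) and did not pass, and it was −0.31 without KO mouse 1 and −0.44 without KO mouse 1 and WT mouse 3.

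Among the other cargo genes, secretogranin V (Scg5), the chaperone of the convertase Pcsk2, had a log2 fold change of −0.48 (SE 0.28). The other 3 KO mice were within 8.19 to 8.21 and KO mouse 1 was at 7.40, and without that mouse the value was −0.28. Pcsk1n, whose product proSAAS inhibits the convertase Pcsk1, was at −0.39 (SE 0.29), and at −0.11 without KO mouse 1, which was at 4.35 while the other 3 KO mice were between 5.27 and 5.69. For secretogranin II (Scg2) the value was −0.30 (SE 0.30), and it was −0.02 without WT mouse 1, the highest of all 8 mice at 10.93. Secretogranin III (Scg3), which helps sort granins to granule membranes, was at −0.17 and chromogranin A (Chga) at −0.14, while Vgf, a neuropeptide precursor, was at 0.02 with both genotypes below the receptor gauge.

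The 3 measured processing enzymes were all negative, with 0 past the threshold, and WT mouse 1 was the highest mouse for each. Pcsk1, the convertase that makes the first cut in proinsulin, had a log2 signal of 5.78, 6.56, 6.42 and 6.11 in KO mice 1 to 4 and 7.87, 6.48, 6.21 and 6.71 in WT mice 1 to 4. WT mouse 1 stood more than 1 log2 unit above every other mouse, WT mouse 4 was slightly above the KO mice, and WT mice 2 and 3 lay among them. Its log2 fold change was −0.60 (SE 0.36), not past the threshold, and −0.25 without WT mouse 1. Carboxypeptidase E (Cpe), which trims the basic residues that the convertases leave, was at −0.15 and Pam, which amidates peptides, at −0.11. Both turned positive without WT mouse 1 (0.13 and 0.09).

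Of the genes grouped as granule membrane or granule-associated, not all of whose products lie on the granule, all 6 were negative and 0 passed. Neuronatin (Nnat), an endoplasmic reticulum protein that aids the removal of the signal peptide from preproinsulin, separated the genotypes. Its log2 signal was 6.57, 6.82, 6.45 and 6.87 in KO mice 1 to 4, against 7.04, 7.004, 7.87 and 6.95 in WT mice 1 to 4. Every KO mouse was below every WT mouse, by 0.08 log2 units at the nearest pair (KO mouse 4 and WT mouse 4), and WT mouse 3 was far above the rest. Its log2 fold change was −0.54 (SE 0.25). By limma it missed the threshold, and it was −0.32 without WT mouse 3. A second probe set of Nnat had overlapping genotypes and a log2 fold change of −0.08.

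Ptprn and Ptprn2, receptor-like phosphatases of the granule membrane that lack catalytic activity, were at −0.39 (SE 0.25) and −0.09. For Ptprn, KO mouse 1 was at 7.74 and the other 3 KO mice between 8.59 and 8.66, and without KO mouse 1 the value was −0.17. Collectrin (Tmem27, named Cltrn in the probe annotation), a β-cell membrane protein, was at −0.35 (SE 0.36), and at −0.02 without WT mouse 1. Sv2a, a vesicle glycoprotein, was at −0.24. Its mean of 3.67 in KO islets lay just under the receptor gauge for KO islets (3.68). In WT islets its mean of 3.91 lay above the lower WT gauge (3.46).

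Slc30a8, the transporter that loads zinc into granules, had nearly equal values in the KO mice and widely spread ones in the WT mice. It was at 8.10, 8.17, 8.12 and 8.25 in KO mice 1 to 4 and 8.73, 7.45, 7.88 and 9.26 in WT mice 1 to 4, and was chosen for display after its values were seen. With a log2 fold change of −0.17 (SE 0.36), the gene did not pass, and the SD was 0.07 in KO and 0.82 in WT islets.

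**Figure D3:**
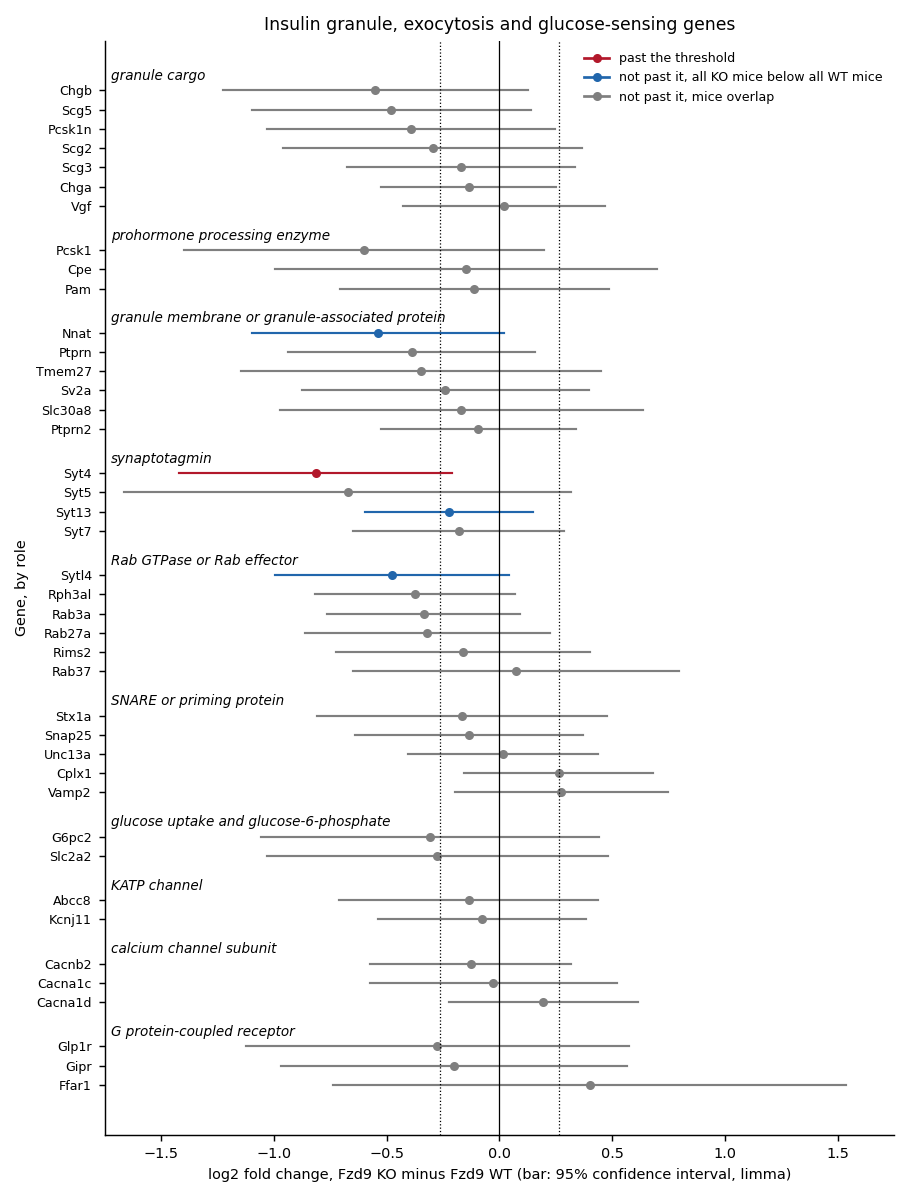
Log2 fold change (KO minus WT) of each of the 41 genes with its 95% confidence interval, by role, with dotted lines at the 1.2-fold limits. Only the interval of Syt4 excludes 0, and Nnat, Syt13 and Sytl4 (blue) are the genes whose KO mice all lay below their WT mice.

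The synaptotagmins held the 2 largest log2 fold changes among the members, with negative values for all 4 genes and 1 gene past the threshold. Synaptotagmin IV (Syt4), a vesicle protein whose calcium binding is weak and which is a marker of mature β-cells, had a log2 signal of 5.04, 5.80, 5.87 and 5.50 in KO mice 1 to 4. In WT mice 1 to 4 it was at 6.62, 6.49, 5.77 and 6.60. Every KO mouse lay below 3 of the WT mice, and WT mouse 3 lay among the KO mice, so the genotypes overlapped. The log2 fold change was −0.81 (SE 0.27, 95% interval −1.42 to −0.21), with an unadjusted limma p of 0.0135, an adjusted p of 1 and an exact two-sided permutation p of 0.0857, where 4 mice against 4 cannot give less than 0.0286.

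This gene passed under 19 of the 20 alternative settings tried, and without KO mouse 1 and WT mouse 3 its log2 fold change was −0.85. The exception was the mean of its 3 probe sets, which gave −0.33. Its other 2 probe sets lay below the receptor gauge in both genotypes, with log2 fold changes of 0.03 and −0.20, and neither passed.

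Synaptotagmin XIII (Syt13), an atypical member that does not bind calcium, showed the tightest values of the group. It was at 8.24, 8.38, 8.41 and 8.36 in KO mice 1 to 4 and 8.58, 8.49, 8.59 and 8.62 in WT mice 1 to 4. All KO mice were below all WT mice, with an SD of 0.07 in KO and 0.06 in WT islets. Its log2 fold change was only −0.22 (SE 0.17), under the 1.2-fold limit, and its limma SE is wider than these SDs imply because limma draws each variance toward that of all probe sets.

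Synaptotagmin V (Syt5), found on granules, varied most, from 3.36 to 5.19 in KO mice and 4.00 to 5.64 in WT mice. Its log2 fold change was −0.67 (SE 0.44), and −0.33 without KO mouse 1. Synaptotagmin VII (Syt7), a high-affinity calcium sensor for insulin release, was at −0.18 (SE 0.21). The mean over the 4 synaptotagmins was 5.99, 6.74, 6.51 and 6.45 in KO mice 1 to 4 and 7.06, 6.99, 6.88 and 6.65 in WT mice 1 to 4. KO mouse 2 was the only KO mouse above a WT mouse (mouse 4).

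**Figure D4:**
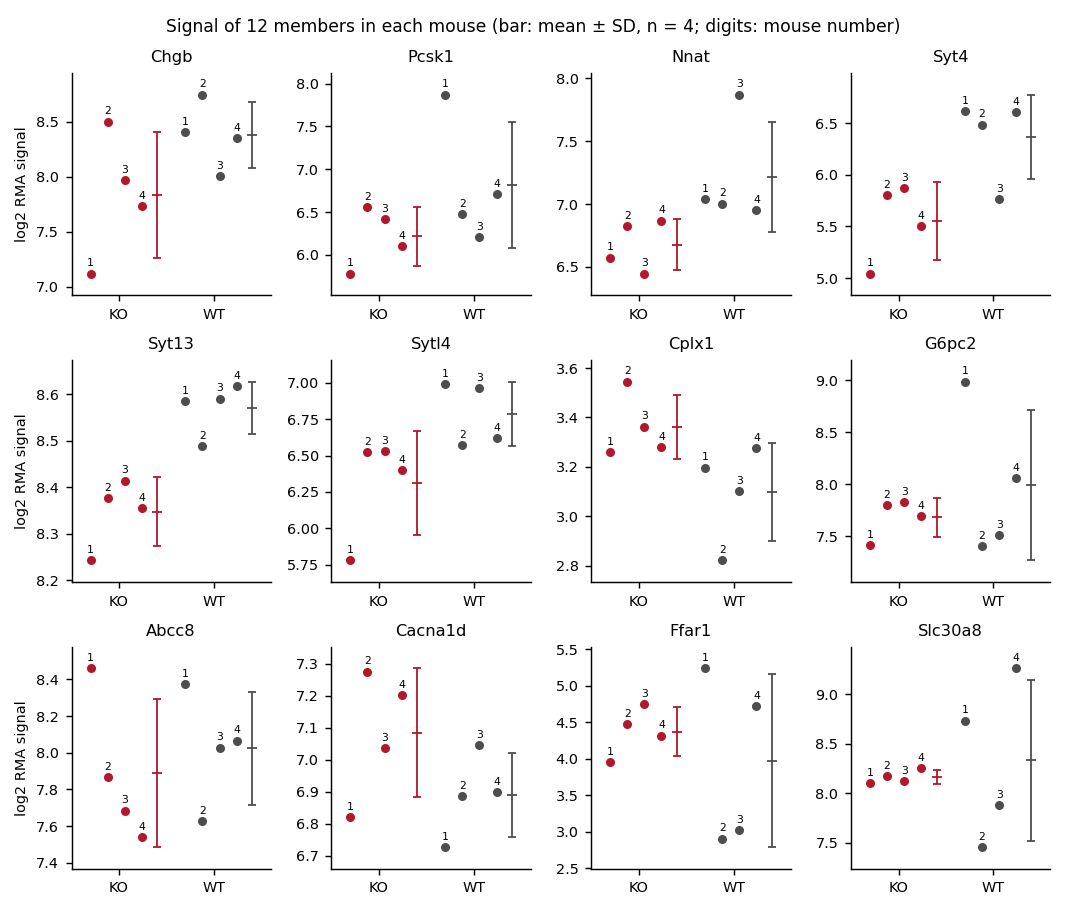
Log2 signal of 12 genes in the KO (left) and WT (right) mice, with mouse numbers and mean ± SD. Nnat, Syt13 and Sytl4 do not overlap between the genotypes, while Slc30a8 and G6pc2 are spread in WT mice around closely placed KO mice. Ffar1 has an SD of 0.33 in KO and 1.18 in WT mice.

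Rab GTPases and their effectors were negative for 5 of 6 genes, with 0 past the threshold. Granuphilin (Sytl4), the Rab27a effector that docks granules at the plasma membrane, was the third gene without overlap. Its log2 signal was 5.78, 6.53, 6.53 and 6.40 in KO mice 1 to 4 and 6.99, 6.57, 6.97 and 6.62 in WT mice 1 to 4. KO mice 2 and 3 were within 0.05 log2 units of WT mouse 2, and KO mouse 1 was the lowest. The log2 fold change was −0.48 (SE 0.23), and −0.24 without KO mouse 1 and WT mouse 3.

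Nnat, Syt13 and Sytl4 were thus 3 of 41 genes with all KO values below all WT values, against 1.06% of all probe sets. All KO values lay above for 0 of 41, against 1.3%. Of the 4047 brighter genes, 73 had all KO values below and 24 had all above. Noc2 (Rph3al), an effector of Rab3 and Rab27 needed for granule release, was at −0.37 (SE 0.20), and Rab3a, a GTPase of granule docking, at −0.34 (SE 0.19). Rab3a had a log2 fold change of −0.48 without KO mouse 1 and WT mouse 3 and then passed the threshold. Rab27a, the GTPase that recruits granuphilin, was at −0.32, Rims2, an active-zone scaffold, at −0.16, and Rab37, a granule Rab below the receptor gauge in both genotypes, at 0.07.

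SNARE and priming genes did not share the negative direction of the roles above, being negative for 2 of 5. Complexin 1 (Cplx1), a clamp on the assembled SNARE complex, had the lowest p among them. It was at 3.26, 3.55, 3.36 and 3.28 in KO mice 1 to 4 and 3.20, 2.82, 3.10 and 3.28 in WT mice 1 to 4, all below the receptor gauge. Only WT mouse 4 reached the KO values, and the log2 fold change of 0.26 (SE 0.19) did not pass. The vesicle SNARE Vamp2 was at 0.27 (SE 0.21), the priming factor Unc13a at 0.02, and the plasma membrane SNAREs Snap25 and Stx1a at −0.13 and −0.17. Stx1a was at 0.20 without KO mouse 1 and WT mouse 3. Whether this role differed from the others was not tested.

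Glucose-sensing genes were both negative, and the genotypes overlapped. G6pc2, the islet glucose-6-phosphatase that opposes glucokinase, was at 7.42, 7.80, 7.83 and 7.69 in KO mice 1 to 4 and 8.99, 7.41, 7.51 and 8.06 in WT mice 1 to 4. WT mouse 1 was the highest again, and WT mice 2 and 3 were at or below most KO mice. The log2 fold change of −0.31 (SE 0.33) became 0.03 without WT mouse 1. Slc2a2, the glucose transporter of rodent β-cells, was at −0.28 (SE 0.34), and at −0.06 without WT mouse 1.

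For the KATP channel, Abcc8, the sulfonylurea receptor subunit, was at 8.46, 7.87, 7.68 and 7.54 in KO mice 1 to 4 and 8.38, 7.63, 8.03 and 8.07 in WT mice 1 to 4. Here KO mouse 1 was the highest mouse, unlike in most other genes, and the log2 fold change was −0.14 (SE 0.26). The pore subunit Kcnj11 was at −0.08 (SE 0.21).

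The calcium channel subunit with the lowest p was Cacna1d, a pore subunit of L-type channels. It was at 6.82, 7.28, 7.04 and 7.20 in KO mice 1 to 4 and 6.73, 6.89, 7.05 and 6.90 in WT mice 1 to 4, with overlap and a log2 fold change of 0.20 (SE 0.19). Cacna1c, the other L-type pore subunit, was at −0.03 (SE 0.24), and the auxiliary subunit Cacnb2 at −0.13, its second, dim probe set being at −0.09.

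Receptors that amplify insulin release varied more among the WT mice than between genotypes. Ffar1, a receptor for long-chain fatty acids, was at 3.95, 4.47, 4.75 and 4.32 in KO mice 1 to 4 and 5.24, 2.91, 3.02 and 4.72 in WT mice 1 to 4. WT mice 2 and 3 were below the receptor gauge and WT mouse 1 was the highest of all, with every KO mouse between these values. With a log2 fold change of 0.40 (SE 0.51) it did not pass. Glp1r, the receptor of the incretin GLP-1, was at −0.27 (SE 0.38), between 7.83 and 8.23 in KO mice and between 7.22 and 9.22 in WT mice. It was at −0.63 without WT mouse 3 and at 0.04 without WT mouse 1. Gipr, the receptor of the incretin GIP, was at −0.20 (SE 0.34), and at 0.29 without KO mouse 1 and WT mouse 3.

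In each genotype the same mice were high for many of the genes. KO mice 2 and 3 were the 2 highest KO mice for 17 of the 41 genes and KO mice 2 and 4 for 12. WT mice 1 and 4 were the 2 highest WT mice for 20 of the 41 genes, while the other 5 pairs were so for 3 to 5 genes each. WT mouse 1 was above the mean of the other WT mice by a median of 0.26 log2 units over the members and by 0.26 over the 4047 brighter genes. For KO mouse 1 the median difference from the mean of the other KO mice was −0.36 over the members and −0.23 over the brighter genes. The SD was larger in WT than in KO islets for 27 of the 41 genes, with a median of 0.27 in KO and 0.31 in WT islets. Among the 4047 brighter genes 62% had the larger SD in WT, so the members were close to that share.

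Other genes of the same pathways passed the threshold in numbers near the background, where 1.59% of probe sets and 1.51% of the 4047 brighter genes were lower. Of 36 measured further granule and prohormone genes, 0 fell and 0 rose, 28 were negative and the median log2 fold change was −0.12. Of 74 measured further genes of the exocytosis machinery, 2 fell (2.70%) and 0 rose, 39 were negative and the median was −0.01. Nsf, the ATPase that takes spent SNARE complexes apart, fell by 0.55 (SE 0.25), and Stx4a, a plasma membrane syntaxin, fell by 0.60 (SE 0.24). Nsf kept its place past the threshold under 6 of the 20 alternatives and Stx4a under 12. With 1 mouse left out at a time, Nsf passed only without KO mouse 2 or WT mouse 3. Stx4a then passed only without KO mouse 3 or WT mouse 4. Without KO mouse 1 the log2 fold changes were −0.40 for Nsf and −0.58 for Stx4a.

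Of 77 measured further genes of glucose sensing, channels and receptors, 2 fell (2.60%) and 0 rose, 54 were negative and the median was −0.08. The mouse means over this list did not overlap, at 4.29 to 4.49 in KO and 4.52 to 4.61 in WT mice. Those over the further granule and exocytosis genes overlapped, and no list mean was tested. Galr1, a receptor for galanin, which restrains insulin release, was at 2.95, 2.99, 3.42 and 3.43 in KO mice 1 to 4 and 4.29, 3.47, 3.88 and 4.17 in WT mice 1 to 4. All KO mice were below all WT mice and below the receptor gauge, and the gene passed the threshold as lower here and under all 20 alternatives. Its fitted log2 fold change of −0.76 (SE 0.24) is not an exact size, as the KO signal did not stand above that gauge. Pyruvate carboxylase (Pcx), which feeds the citric acid cycle in β-cells, was at 6.20, 5.93, 5.74 and 5.93 in KO mice 1 to 4 and 6.89, 6.31, 6.24 and 6.39 in WT mice 1 to 4. It fell by 0.51 (SE 0.21) with no overlap and passed under 14 of the 20 alternatives. With 1 mouse left out at a time, it passed only without KO mouse 1, WT mouse 2 or WT mouse 3. Without WT mouse 1 its log2 fold change was −0.37.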

How the data were processed

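RNA from 4 Fzd9 KO and 4 Fzd9 WT mice was hybridised to Affymetrix Mouse Gene ST arrays, 1 per mouse. The deposited values are log2 signals that the authors made by RMA in Partek per the labels (versions not given in the sources used here), which corrects background, normalizes between arrays by quantiles and summarizes probes. Array medians of the deposited values lay between 2.90 and 3.17. Gene names came from the platform annotation, updated through Entrez IDs: 23521 probe sets had 1 gene, 1820 several and 16004 none. All 41345 probe sets were fitted with limma 3.58.1 in R 4.3.3 (lmFit, eBayes, group as the only term, no filter), KO minus WT, with Benjamini-Hochberg adjustment over all of them. The study's threshold for the arrays was used. Values of all single mice were given for members past the threshold, members without overlap of the genotypes and the member with the lowest p in each role. They were also given for Slc30a8, Fzd9, Galr1 and Pcx, and not for the other genes outside the members. The members, gene lists and marker lists were chosen with earlier results of these data known. Alternatives were other normalizations, variance models, filters and probe set rules, an equal-variance t-test, a replicate block and leaving out mice. Precision is limited by having 4 arrays per genotype. Protein sequences were not used here.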

Additional observations from a re-analysis of the deposited data

Results flagged for a closer look

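In 7 of the 82 groups of 4 values (41 genes in 2 genotypes) a single mouse lay far from the other 3 of its genotype by Dixon's test at the 95% level, where chance gives about 1 in 20 groups, or 4.1 here. KO mouse 1 was the low mouse in 4 of them, with log2 signals of 7.40 for Scg5 (next KO mouse 8.19), 7.74 for Ptprn (next 8.59), 7.53 for Tmem27 (next 8.17) and 4.87 for Gipr (next 6.05). WT mouse 3 was the high mouse for Nnat at 7.87 (next WT mouse 7.04) and the low mouse for Syt4 at 5.77 (next 6.49). WT mouse 1 was the low mouse for Cacna1c at 6.76 (next 7.29). KO mouse 1 and WT mouse 3 were also the mice with the highest acinar marker means of their genotypes, and the part of that RNA in these values was not tested.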

How the results depend on the processing

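The median over the members stayed negative under all 20 alternatives (−0.27 to −0.07), with 29 to 37 members negative in those that kept all 41 genes, and 0 members rose or had an adjusted p under 0.05 in any. The members past the threshold as lower were 2 with array medians centred (Nnat and Syt4). By the t-test they were 3 (Syt4, Rab3a and Rph3al). They were 2 over probe sets with 1 gene (Nnat and Syt4) and 0 with probe sets averaged per gene. Without KO mouse 1 and WT mouse 3 together they were 2 (Syt4 and Rab3a), and 1 to 3 when 1 mouse was left out. Without KO mouse 2 these were Chgb, Syt4 and Rph3al, without WT mouse 3 Syt4 and Rab3a, and without WT mouse 4 Scg5, Syt4 and Syt5. Probe sets lower and higher numbered 382 and 248 above the median level, 378 and 392 with 1 gene and 356 and 380 as means per gene, since fewer were tested, and with single mice left out ranged from 580 to 927 and from 587 to 986. The split leaned to lower under other scalings, with 796 and 726 by quantiles, 773 and 631 centred and 799 and 735 by loess, and the cause was not tested.

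The mouse number as a replicate block gave 1 member (Syt4) and 708 lower and 776 higher probe sets. Same-numbered mice shared only a number, the correlations of their deviations being −0.10, 0.02, 0.07 and 0.24, and the block ended the call of Nsf alone among the genes named as past the threshold.

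Of the 41 members 15 changed sign under at least 1 alternative and 26 under none. Vgf became −0.034 by quantiles, −0.013 centred and −0.023 by loess. Cacna1c became 0.032 by quantiles, 0.015 by loess and 0.0079 with array weights, and Unc13a −0.018 centred. Without KO mouse 1 and WT mouse 3 together Rab37 became −0.17, Rims2 0.048, Stx1a 0.20, Cacna1c 0.18 and Gipr 0.29. With 1 mouse left out at a time, values ranged from −0.44 to 0.13 for Cpe, −0.17 to 0.0093 for Ptprn2, −0.12 to 0.37 for Rab37, −0.30 to 0.06 for Rims2, −0.33 to 0.025 for Stx1a, −0.17 to 0.15 for Cacna1c, −0.35 to 0.12 for Gipr, −0.069 to 0.13 for Vgf, −0.062 to 0.10 for Unc13a, −0.18 to 0.026 for Kcnj11, −0.29 to 0.089 for Pam, −0.50 to 0.025 for G6pc2, −0.63 to 0.039 for Glp1r, −0.26 to 0.0032 for Snap25 and −0.46 to 0.14 for Slc30a8.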
